A study of Mus musculus with 9 samples.

Results

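The data were lung transcript levels of 10 Kruppel-like factor genes (Klf2, Klf3, Klf4, Klf5, Klf6, Klf7, Klf9, Klf10, Klf13 and Klf15), taken by gene symbol from a table of 27203 gene IDs. RNA sequencing was done on whole lung of 9 male C57BL/6 mice aged 6 to 8 weeks, 3 in each of 3 groups. In ventilator-induced lung injury (VILI), overstretch of the lung by the ventilator damages the alveolar wall and draws in inflammatory cells. Mice were anaesthetised with ketamine and xylazine before intubation. VILI mice were given the muscle relaxant pancuronium and ventilated with room air at a tidal volume of 20 ml/kg for 4 hours without end-expiratory pressure. The VILI 0 hours group was killed at the end of ventilation and the VILI 6 hours group 6 hours later. Control mice were intubated and not ventilated, and the paper reports hypoventilation in them. It does not say whether they had the same length of anaesthesia or the muscle relaxant. Ventilation, maintained anaesthesia, muscle relaxation and the time these took therefore cannot be told apart as sources of a difference from control.

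Kruppel-like factors are transcription factors that bind CACCC and GC-rich DNA elements through C-terminal zinc fingers, while their N-terminal parts differ and recruit activators or repressors. KLF2 and KLF4 are induced by laminar flow in endothelium, where they keep the vessel wall anticoagulant and quiescent. KLF9 and KLF15 are direct targets of the glucocorticoid receptor, and KLF10 was named for its early induction by transforming growth factor beta (TGF-beta).

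Values are FPKM (sequenced fragments scaled by exon length and by library size), summed over the transcript rows of a gene. Because FPKM is scaled by transcript length, levels of different genes can be set side by side. Library sums lay between 366360 and 388459 FPKM, and the read depth behind a single value is unknown from the table. Type 2 alveolar markers such as Sftpc summed to between 12530 and 15550 FPKM and endothelial markers such as Pecam1 to between 1024 and 1323 FPKM in the 9 libraries, so the lung label held. In whole lung, fewer cells of a type and less RNA per cell cannot be told apart.

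One library stood apart from its group. VILI 6 hours replicate 1 differed from the control libraries by a root mean square of 0.567 on the log2 scale over genes, and from the other VILI 6 hours libraries by 0.822. Of the 10 Kruppel-like factors, 7 lay inside the control range in that library, Klf9 and Klf13 lay below it and Klf5 lay above it. Its summed neutrophil markers were at 467.3 FPKM, against 48.54 to 56.8 FPKM in control. Its summed globin and Alas2 level was 488.6 FPKM, against 3225 to 4182 FPKM in control. Its club and ciliated markers summed to 41530 FPKM, against 25140 to 27620 FPKM in control. Its smooth muscle and type 1 alveolar sums, at 278.8 and 1611 FPKM, were the highest of all libraries. Its T cell sum of 9.59 FPKM was the lowest. Fold changes of the 10 members and counts of the gene lists at VILI 6 hours are therefore given with and without this library. This library was singled out after its levels were seen, because it lay near control over all genes and for most members. Leaving it out therefore favours a difference from control at VILI 6 hours. It also narrows the spread that all comparisons share, which favours small P values in each of them. Values without this library show how far the results depend on it and are not independent tests of a difference.

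All 10 members were above the filter on low values (a mean of at least 0.1 FPKM over the libraries). In control lung Klf2 was the most abundant, at 67.7 ± 19.8 FPKM (SD, n = 3), followed by Klf6, Klf3, Klf13, Klf9, Klf4, Klf7, Klf10, Klf5 and Klf15. Klf15 was lowest, at 10 ± 1.06 FPKM (SD, n = 3). Neighbours in that order overlapped between control libraries except Klf13 over Klf9, Klf9 over Klf4, Klf7 over Klf10 and Klf5 over Klf15.

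**Figure D1:**
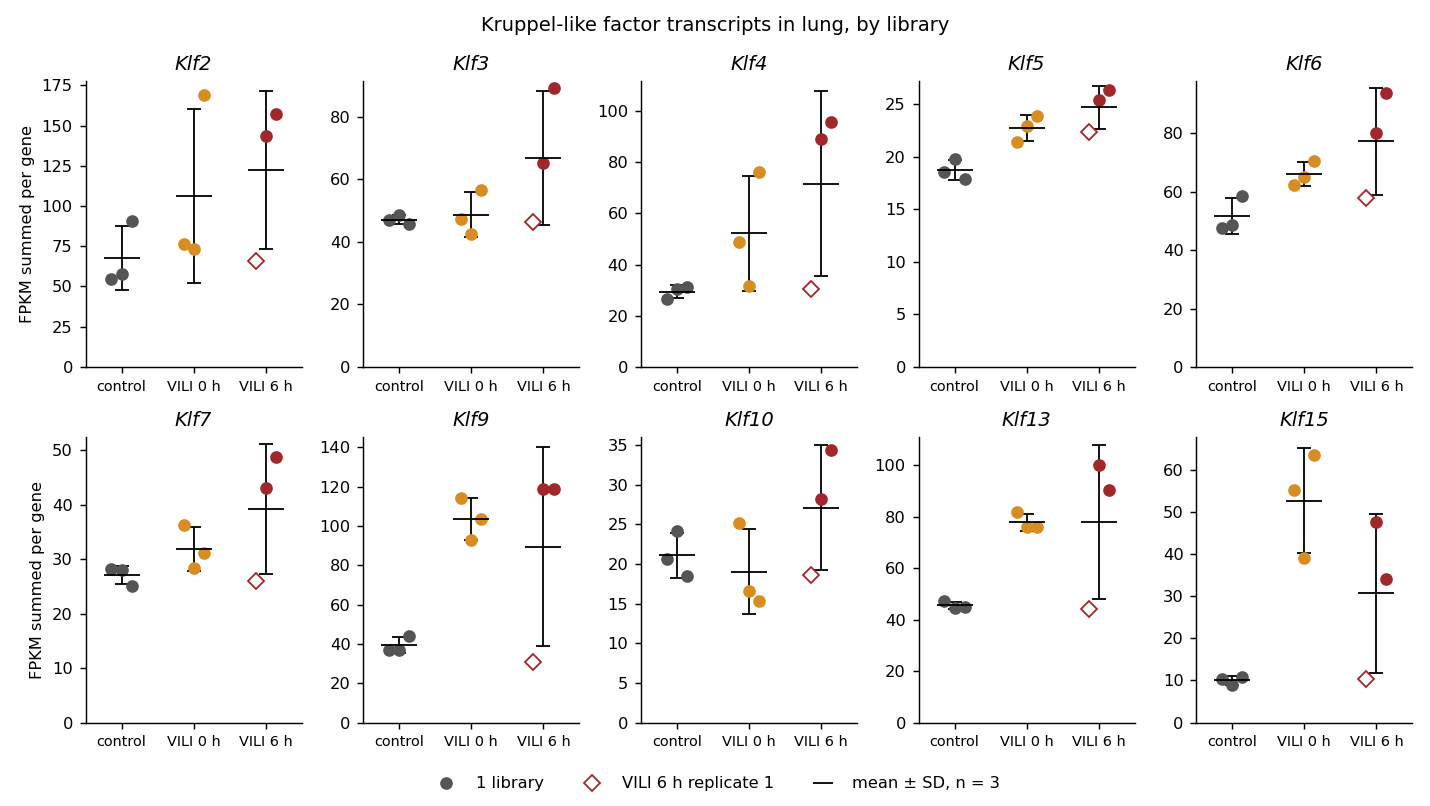
FPKM summed per gene (y axis, linear from 0) for the 10 Kruppel-like factors in the 3 groups, 1 point per library with the mean and SD of 3. VILI 6 hours replicate 1 (open diamond) lies near the control points in most panels, while replicates 2 and 3 lie above every control library in all 10.

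At VILI 0 hours, Klf5, Klf9, Klf13 and Klf15 were higher than in control, with mean levels 1.21, 2.63, 1.71 and 5.27 times those of control. These 4 members passed an unadjusted P under 0.05 (limma on log2(FPKM + 0.1) in 1 fit over 19378 genes and 9 libraries) and 0 were lower. The study also set P under 0.05, but for transcripts and not in this fit, so passing here is not passing there. Over all genes, 6.81% passed in the higher and 9.35% in the lower direction. The groups did not overlap for 7 members, which lay higher in every VILI 0 hours library than in every control library: these 4, Klf4, Klf6 and Klf7. Over all genes tested, 12% did so. The median log2 fold change was 0.47 over the members and -0.07 over all genes. After Benjamini-Hochberg adjustment 0 of the 10 members had an adjusted p under 0.05, as against 0.284% of all genes. Without VILI 6 hours replicate 1 in the shared fit, Klf4 and Klf6 also passed, making 6 members at P under 0.05 (8.97% of all genes in that direction), and Klf9, Klf13 and Klf15 had an adjusted p under 0.05 (6.93% of all genes).

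Klf4, Klf5, Klf6, Klf7, Klf13 and Klf15 were higher at VILI 6 hours than in control, at 2.44, 1.32, 1.49, 1.45, 1.72 and 3.08 times on mean levels. These 6 members passed P under 0.05 and 0 were lower, while 8.17% of all genes passed as higher and 12.2% as lower. None of the 10 reached an adjusted p under 0.05 in limma, and 0.702% of all genes did. Only Klf5 had groups that did not overlap, as had 9.64% of all genes in that direction. The median log2 fold change was 0.62 over the members and -0.09 over all genes. Without VILI 6 hours replicate 1, 10 of 10 members passed P under 0.05 as higher (12.9% of all genes) and 9 of them had an adjusted p under 0.05 (23.3% of all genes), the exception being Klf10 with an adjusted p of 0.0816. Replicates 2 and 3 lay above every control library for 10 of 10 members and for 19.6% of all genes. Both counts of 10 rest on setting aside a library seen to lie near control, which favours higher values. They can be read only beside the shares of all genes, which were taken in the same way. The count at P under 0.05 was 2 without VILI 6 hours replicate 2 (6.31% of all genes as higher), 2 without replicate 3 (6.64%) and 3 without control replicate 2 (6%).

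**Figure D2:**
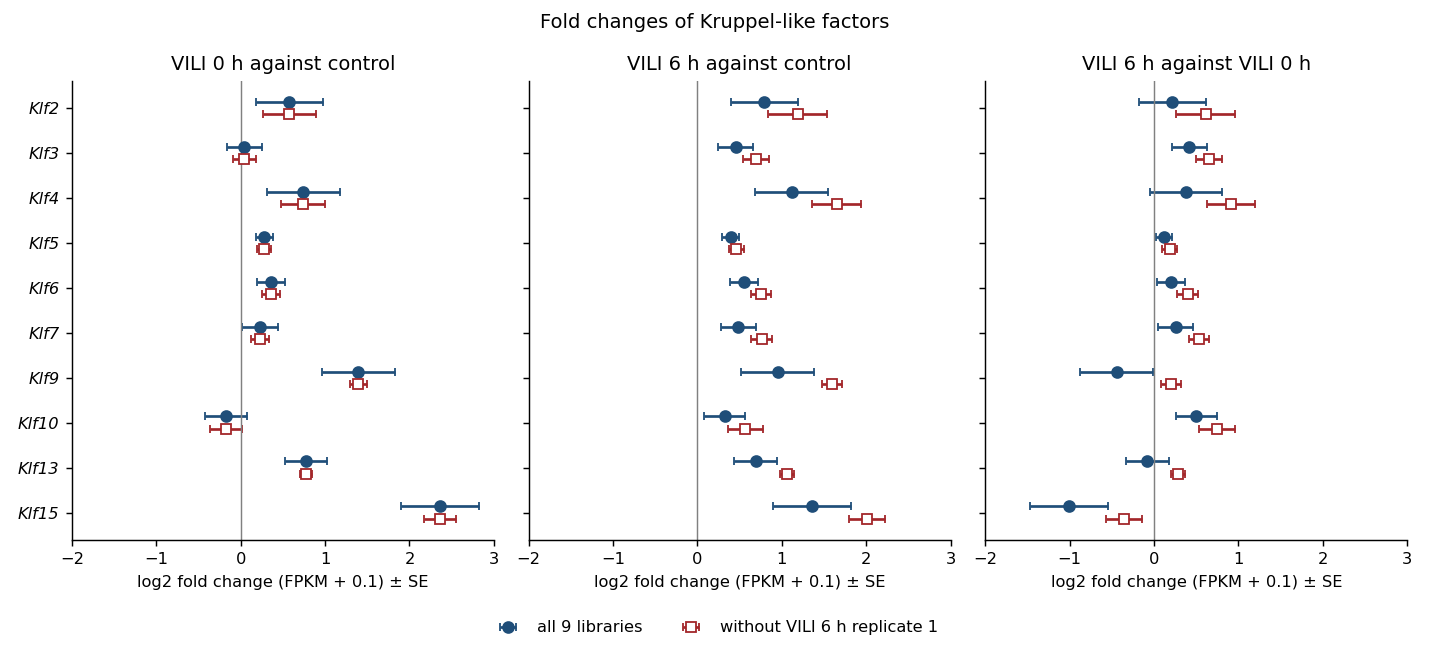
Log2 fold change on the FPKM + 0.1 scale (x axis, ± SE) of each Kruppel-like factor in the 3 comparisons, from all 9 libraries (filled circles) and without VILI 6 hours replicate 1 (open squares). Klf15 and Klf9 stand furthest to the right at VILI 0 hours, at 2.36 and 1.39, and every member moves to the right at VILI 6 hours when that library is left out.

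Klf15, which activates amino acid breakdown genes in fasting and under glucocorticoids, differed most from control. The gene lies at chr6:90462576-90475238 on the plus strand of GRCm38. The 250 bases before its RefSeq start (GRCm38.p6, chr6:90462326-90462575, plus strand) are shown because the gene had the largest fold change among the members. Capitals in this and the following upstream sequences mark CACCC and GGGCGG, the letters of the CACCC box and the GC box, on either strand.
Klf15: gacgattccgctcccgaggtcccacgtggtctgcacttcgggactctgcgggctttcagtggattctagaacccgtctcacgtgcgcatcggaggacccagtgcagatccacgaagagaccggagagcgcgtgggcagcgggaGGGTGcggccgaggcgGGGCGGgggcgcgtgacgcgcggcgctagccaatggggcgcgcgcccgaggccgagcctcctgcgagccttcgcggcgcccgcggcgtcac
Control libraries had 10.4, 8.815 and 10.8 FPKM of Klf15. VILI 0 hours libraries had 55.3, 39.2 and 63.7 FPKM. The lowest of these was far above the highest control value. The log2 fold change at VILI 0 hours was 2.36 ± 0.46 (SE), with a limma P of 0.000562 and an adjusted p of 0.0706, and it lay between 2.21 and 2.56 when each library was left out in turn. At VILI 6 hours the libraries had 10.4, 47.7 and 34.2 FPKM, so replicate 1 was inside the control range and the other libraries above it. The log2 fold change against control was 1.36 ± 0.46 (SE; adjusted p = 0.165) with that library, and 2.01 ± 0.21 (SE; adjusted p = 0.000897) without it.

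Klf9, a short factor that represses transcription through the Sin3A corepressor and is a well-known glucocorticoid and thyroid hormone target, lies at chr19:23141226-23168134 on the plus strand. The sequence upstream of its start (chr19:23140976-23141225, plus strand) is shown as that of the member with the next largest fold change at VILI 0 hours.
Klf9: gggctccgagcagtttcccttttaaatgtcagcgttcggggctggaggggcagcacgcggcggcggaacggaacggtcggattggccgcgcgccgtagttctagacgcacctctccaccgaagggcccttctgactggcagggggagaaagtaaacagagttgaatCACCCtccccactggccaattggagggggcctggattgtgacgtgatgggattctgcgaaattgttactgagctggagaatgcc
Klf9 stood at 37.0, 37.0 and 44.0 FPKM in control. It was at 114.5, 92.9 and 103.4 FPKM at VILI 0 hours. All VILI 0 hours values were above all control values. The log2 fold change against control was 1.39 ± 0.43 (SE; adjusted p = 0.17), and without VILI 6 hours replicate 1 in the fit the same fold change had an SE of 0.10 and an adjusted p of 0.000322. VILI 6 hours libraries had 30.97, 118.6 and 118.7 FPKM. Replicate 1 was below the lowest control library and replicates 2 and 3 were above the highest VILI 0 hours library. Against control the log2 fold change was 0.95 ± 0.43 (SE; adjusted p = 0.253), which did not pass. It was 1.60 ± 0.12 (SE; adjusted p = 0.000231) without replicate 1.

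Klf13, which also recruits Sin3A and is known for its role in T cell and heart gene expression, lies at chr7:63886351-63938915 on the minus strand. Its upstream sequence (chr7:63938916-63939165, written along the minus strand) is given because Klf13, with Klf9 and Klf15, had an adjusted p under 0.05 at VILI 0 hours once VILI 6 hours replicate 1 was left out.
Klf13: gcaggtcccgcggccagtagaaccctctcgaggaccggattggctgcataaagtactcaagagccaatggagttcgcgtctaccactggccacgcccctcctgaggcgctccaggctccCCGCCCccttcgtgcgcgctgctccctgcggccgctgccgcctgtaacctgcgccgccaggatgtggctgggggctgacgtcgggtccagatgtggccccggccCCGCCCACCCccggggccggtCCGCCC
Control libraries had 47.2, 44.5 and 44.9 FPKM of Klf13, and VILI 0 hours libraries 81.6, 75.9 and 76.1 FPKM. The groups were far apart relative to their spread. The log2 fold change was 0.77 ± 0.25 (SE; adjusted p = 0.19), or an adjusted p of 0.00126 without VILI 6 hours replicate 1. VILI 6 hours libraries had 44.0, 99.9 and 90.2 FPKM, with replicate 1 just under the control range. Against control the log2 fold change was 0.69 ± 0.25 (SE; adjusted p = 0.182), and 1.06 ± 0.08 (SE; adjusted p = 0.000269) without replicate 1.

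Klf10, the remaining Sin3A-binding member, showed another order. Control libraries had 20.7, 24.1 and 18.5 FPKM, VILI 0 hours libraries 25.1, 16.5 and 15.3 FPKM, and VILI 6 hours libraries 18.7, 28.2 and 34.3 FPKM. All 3 groups overlapped. Its log2 fold change was -0.18 ± 0.24 (SE; adjusted p = 0.766) at VILI 0 hours, the single negative value among the members, and 0.32 ± 0.24 (SE; adjusted p = 0.465) at VILI 6 hours. Without VILI 6 hours replicate 1 the latter was 0.57 ± 0.21 (SE; adjusted p = 0.0816).

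Klf4, known from endothelium, macrophages and stem cells, was variable at VILI 0 hours. The gene lies at chr4:55527143-55532466 on the minus strand, and its upstream sequence (chr4:55532476-55532725, written along the minus strand) is shown as that of the flow-induced member whose level differed most.
Klf4: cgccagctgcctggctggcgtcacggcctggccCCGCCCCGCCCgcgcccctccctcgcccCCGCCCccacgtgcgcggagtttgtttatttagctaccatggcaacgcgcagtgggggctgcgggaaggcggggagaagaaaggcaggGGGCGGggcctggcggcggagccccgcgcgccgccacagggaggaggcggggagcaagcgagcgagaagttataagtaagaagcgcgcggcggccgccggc
Klf4 had 26.5, 30.4 and 31.3 FPKM in control and 48.7, 31.8 and 76.1 FPKM at VILI 0 hours. VILI 0 hours replicate 2 exceeded the highest control by less than 1 FPKM. The log2 fold change was 0.74 ± 0.43 (SE; adjusted p = 0.433) and did not pass. VILI 6 hours libraries had 30.3, 89.1 and 95.7 FPKM, of which replicate 1 was inside the control range. Against control the log2 fold change was 1.12 ± 0.43 (SE; adjusted p = 0.195), and 1.65 ± 0.29 (SE; adjusted p = 0.0067) without replicate 1. It held at P under 0.05 in 4 of the 9 fits that left out 1 library.

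Klf2, the other flow-induced member, had 54.6, 58.0 and 90.5 FPKM in control, 76.6, 73.5 and 168.7 FPKM at VILI 0 hours, and 66.0, 143.6 and 157.2 FPKM at VILI 6 hours. Groups overlapped in both comparisons with control. Its log2 fold changes of 0.58 ± 0.40 (SE; adjusted p = 0.517) and 0.79 ± 0.40 (SE; adjusted p = 0.288) did not pass. Without VILI 6 hours replicate 1 the later value was 1.19 ± 0.35 (SE; adjusted p = 0.04).

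Klf5, Klf6 and Klf7 carry acidic activation domains. Klf5 is an epithelial and smooth muscle factor, Klf6 is an early injury-response gene, and Klf7 was first described in neurons. Klf5 changed little in size but with little spread: control libraries had 18.6, 19.8 and 17.8 FPKM, VILI 0 hours libraries 21.4, 22.9 and 23.9 FPKM, and VILI 6 hours libraries 22.4, 25.4 and 26.3 FPKM. It was the single member whose VILI 6 hours replicate 1 lay above the control range. The log2 fold change was 0.28 ± 0.10 (SE; adjusted p = 0.214) at VILI 0 hours and 0.39 ± 0.10 (SE; adjusted p = 0.0967) at VILI 6 hours, which was 0.46 ± 0.09 (SE; adjusted p = 0.0105) without replicate 1. The later value held at P under 0.05 in 9 of 9 fits that left out 1 library, and the earlier one in 5 of 9.

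Klf6 had 47.6, 48.7 and 58.7 FPKM in control, 62.3, 65.0 and 70.4 FPKM at VILI 0 hours and 57.8, 80.0 and 93.8 FPKM at VILI 6 hours. Every VILI 0 hours library was above control, and at VILI 6 hours replicate 1 fell within the control range. At VILI 6 hours the log2 fold change was 0.56 ± 0.17 (SE; adjusted p = 0.131), and 0.75 ± 0.12 (SE; adjusted p = 0.00455) without replicate 1. At VILI 0 hours it was 0.35 ± 0.17 (SE; adjusted p = 0.335), which did not pass.

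Klf7 ranged from 25.1 to 28.1 FPKM in control, from 28.4 to 36.2 FPKM at VILI 0 hours, and stood at 25.9, 43.0 and 48.8 FPKM at VILI 6 hours. The VILI 6 hours log2 fold change of 0.49 ± 0.21 (SE; adjusted p = 0.235) held in 1 of 9 fits that left out 1 library, namely without VILI 6 hours replicate 1, at 0.76 ± 0.12 (SE; adjusted p = 0.00468). Klf3, a repressor that binds the CtBP corepressors, had 46.9, 48.6 and 45.6 FPKM in control, 47.2, 42.4 and 56.4 FPKM at VILI 0 hours and 46.4, 65.1 and 89.0 FPKM at VILI 6 hours. Its control and VILI 0 hours libraries overlapped and its log2 fold change there was 0.04 ± 0.21 (SE; adjusted p = 0.944). The later value was 0.46 ± 0.21 (SE; adjusted p = 0.251), and 0.69 ± 0.15 (SE; adjusted p = 0.015) without replicate 1. For single genes, the exact two-sided permutation test of 3 against 3 libraries cannot go below 0.1, and it gave 0.1 for the 7 members whose groups did not overlap at VILI 0 hours.

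Between VILI 6 hours and VILI 0 hours, 0 members passed P under 0.05 in either direction in limma, while 5.06% of all genes were higher and 4.94% lower. The median log2 difference was 0.21 over the members and -0.02 over all genes. Klf15 had the most negative difference, -1.005 ± 0.46 (SE; adjusted p = 0.513), which was -0.35 ± 0.21 (SE; adjusted p = 0.353) without VILI 6 hours replicate 1. Klf9 and Klf13 changed sign with that library, from -0.44 to 0.20 and from -0.08 to 0.29. Without it, Klf3, Klf4, Klf6, Klf7, Klf10 and Klf13 passed P under 0.05 as higher at VILI 6 hours, which is 6 members against 8.55% of all genes, and 0 had an adjusted p under 0.05 (1.87% of all genes). In replicates 2 and 3, 8 of 10 members lay above every VILI 0 hours library, as did 13.8% of all genes. The exceptions were Klf2, whose highest level of all was in VILI 0 hours replicate 3, and Klf15.

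The 10 genes were spread over 23 transcript rows, of which 22 passed the filter and 5 genes had a single row. Fitted row by row, 9 of 22 rows were higher at P under 0.05 at VILI 0 hours (4.71% of all rows tested) and 6 of 22 at VILI 6 hours (5.73%), with 0 lower in either. The 9 were all rows of Klf15, rows 1 and 2 of Klf13 and the single rows of Klf5 and Klf9. These genes were already called by gene sum at that time, and rows of 1 gene are not independent, so the row count is not wider support. The 9 include rows 3 and 4 of Klf15, which had a mean below 0.1 FPKM in control and passed the filter only through the ventilated libraries, so their calls were favoured by it. The other 7 rows were above 0.1 FPKM in every control library. The count was 4 without control replicate 3 or VILI 0 hours replicate 3 and 5 without VILI 0 hours replicate 2. With a mean of at least 1 FPKM required, or with no filter, it was 7. The share of all rows was not taken in these fits, so whether the drops are particular to the members is unknown. Without VILI 6 hours replicate 1, 15 of 22 were higher at VILI 6 hours (8.99% of all rows). One row carried most of the signal of each gene with several rows: 97.0% of Klf4 FPKM over the 9 libraries, 96.9% of Klf3, 90.2% of Klf7 and 81.8% of Klf13. The table names rows by gene only, so a row cannot be tied to a particular isoform. Genes on the other strand overlap 3 members (Klf3, Klf7 and Klf13), and the sources differ on whether the libraries kept strand.

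Klf15 was divided among 5 rows whose pooled shares differed between groups, which was not tested. The fifth row rose from 3.33, 2.67 and 5.87 FPKM in control to 32.5, 27.8 and 35.7 FPKM at VILI 0 hours, with a log2 fold change of 3.06 (adjusted p = 0.257 over all rows). It made up 39.5% of Klf15 FPKM in control, 60.7% at VILI 0 hours and 69.2% at VILI 6 hours. The second row held 43.7% in control and 15.2% at VILI 0 hours, with 6.47, 4.58 and 2.05 FPKM in control and 6.60, 6.58 and 10.8 FPKM at VILI 0 hours. The third row was near 0.1 FPKM in control and at 8.83, 0.228 and 7.82 FPKM at VILI 0 hours, so 1 library of that group remained near the control level. In VILI 6 hours replicate 1 the fifth row stood at 3.05 FPKM and the second at 6.41 FPKM, both within the control range.

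**Figure D3:**
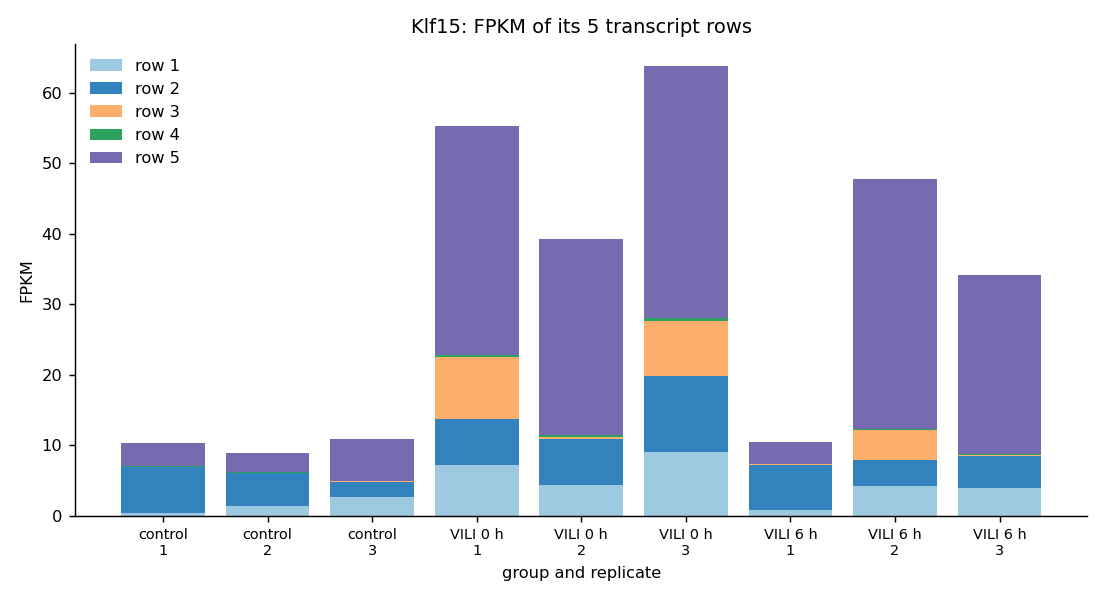
Stacked FPKM (y axis, linear from 0) of the 5 transcript rows of Klf15 in each of the 9 libraries (x axis). Row 5 takes up most of the bar in the VILI libraries except VILI 6 hours replicate 1, whose bar is about the height and makeup of the control bars.

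Profiles most like those of the 3 most variable members were sought among 14098 genes with a mean of at least 1 FPKM, by the root mean square difference of log2 values centred on their own mean over 9 libraries. Nearest to Klf15 were Galnt15 (0.242), Rgcc (0.245) and Tent5b (0.304). Rgcc, for example, ranged from 40.3 to 47.6 FPKM in control and from 170.6 to 248.5 FPKM at VILI 0 hours, and was at 40.1 FPKM in VILI 6 hours replicate 1 against 214.8 and 197.6 FPKM in the other 2. Nearest to Klf9 were Fas (0.133), the death receptor, Pnpla2 (0.137), the triglyceride lipase of fat droplets, and Bnip3 (0.196), a mitophagy receptor. Nearest to Klf4 were Mpp3 (0.141), Tiparp (0.176) and Fen1 (0.195).

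Genes of the glucocorticoid pathway, in which Klf9 and Klf15 are known targets, were counted from a list of 9 (receptor, activating enzyme and targets). At VILI 0 hours 6 of the 9 were higher and 1 was lower at P under 0.05, with a list median of 1.605 (log2) beside -0.07 over all genes. For this and the following lists, the shares over all genes were 6.81% higher and 9.35% lower at VILI 0 hours. At VILI 6 hours they were 8.17% and 12.2%. Without VILI 6 hours replicate 1 the higher shares were 8.97% and 12.9%. The lists are short, so small counts are not read as results about a list. Fkbp5, a chaperone that restrains the receptor and is one of its strongest targets, had 4.62, 4.43 and 3.53 FPKM in control and 86.3, 46.5 and 96.5 FPKM at VILI 0 hours. Its log2 fold change was 4.10 ± 0.86 (SE; adjusted p = 0.0757). Pdk4, which spares glucose by blocking pyruvate dehydrogenase, rose by 3.42 (log2; adjusted p = 0.0769), and Tsc22d3, encoding the anti-inflammatory factor GILZ, by 1.605 (log2; adjusted p = 0.134). Nr3c1, the glucocorticoid receptor itself, was lower, at 49.6, 46.2 and 40.5 FPKM against 63.5, 63.8 and 71.7 FPKM in control (log2 fold change -0.55, adjusted p = 0.17).

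At VILI 6 hours 3 of the 9 genes were higher and 2 lower, with a median of 1.085 beside -0.09 over all genes, and without replicate 1 the counts were 7 and 2. Fkbp5 was at 6.73, 81.6 and 107.5 FPKM. In VILI 6 hours replicate 1, Fkbp5, Sgk1 and Dusp1 were above every control library by a small margin beside the other VILI libraries, Pdk4 was inside the control range as was Klf15, and Per1, Zbtb16, Tsc22d3, Hsd11b1 and Nr3c1 were below every control library, as was Klf9. Hsd11b1, the enzyme that regenerates active glucocorticoid, fell by 0.495 on the log2 scale (adjusted p = 0.0754), with 98.9, 121.1 and 124.3 FPKM against 149.8 to 179.4 FPKM in control. Of KLF15's amino acid targets, 2 of 8 were higher and 0 lower at each time, and without VILI 6 hours replicate 1 the later counts were 2 higher and 3 lower. Glul (glutamine synthetase) had the highest fold change, at 88.1 to 93.1 FPKM in control, 276.4 to 338.1 FPKM at VILI 0 hours and 81.3, 322.3 and 389.0 FPKM at VILI 6 hours. The list median was 0.051 at VILI 0 hours and 0.002 at VILI 6 hours, near that of all genes.

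**Figure D4:**
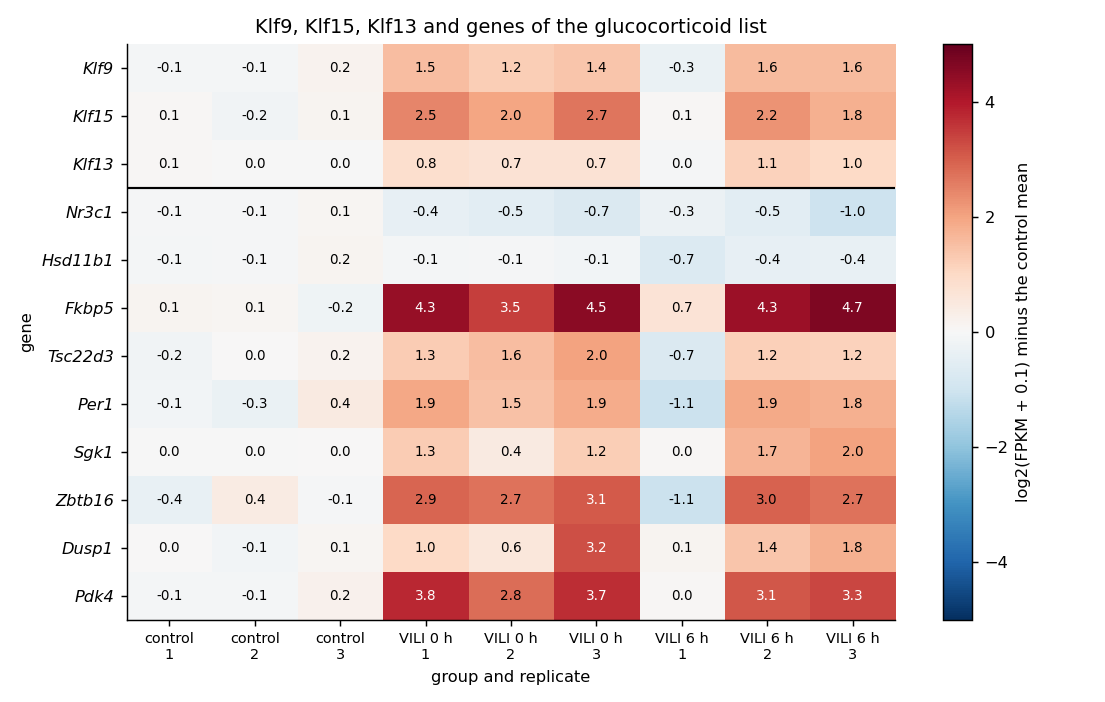
Log2(FPKM + 0.1) minus the control mean for Klf9, Klf15 and Klf13 (above the line) and the 9 genes of the glucocorticoid list (rows), in each library (columns), coloured from blue (lower) to red (higher). The 5 VILI libraries other than VILI 6 hours replicate 1 are red for Klf9, Klf15 and 7 of the list genes, while Nr3c1 and Hsd11b1 are at or below 0 there.

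Of 11 endothelial genes that KLF2 and KLF4 are known to hold up, 0 were higher and 2 lower at VILI 0 hours, Tek (log2 fold change -0.47, adjusted p = 0.112) and Nos3 (-0.61, adjusted p = 0.138), the angiopoietin receptor and the endothelial nitric oxide synthase. Later 0 were higher and 2 lower, Tek again (-0.55, adjusted p = 0.0716) and Asgr1 (-1.125, adjusted p = 0.225). The counts became 1 higher and 3 lower at VILI 0 hours and 3 higher and 2 lower at VILI 6 hours when VILI 6 hours replicate 1 was left out of the fit. Timp3, an inhibitor of matrix proteases, then passed as higher at VILI 6 hours (0.74 on the log2 scale; adjusted p = 0.00268), as did Nos3 (0.47; adjusted p = 0.0421). With all libraries the list medians were -0.23 and -0.06. Of 9 genes that these factors are known to hold down, 2 were higher at VILI 0 hours, Ccn2 and the clotting initiator F3 (tissue factor), and 0 lower. The median of this list was nevertheless negative there, at -0.257 beside -0.07 over all genes, and was 0.565 beside -0.089 at VILI 6 hours. Later 4 were higher, Ccl2, Sele, F3 and Icam1, and Angpt2 was lower, and without replicate 1 the counts were 6 and 1 (3 and 1 at VILI 0 hours). The chemokine Ccl2 had 0.895, 0.797 and 0.609 FPKM in control and 2.35, 5.27 and 13.55 FPKM at VILI 6 hours (log2 fold change 2.72, adjusted p = 0.0733). Endothelial markers were between 1101 and 1133 FPKM in control, 1112 and 1323 FPKM at VILI 0 hours and 1024 and 1219 FPKM at VILI 6 hours, where 0 of 7 were higher and 1 lower, and 4 and 2 without replicate 1.

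Upstream of Klf2 and Klf4, the MEK5, ERK5 and MEF2 flow pathway had 1 gene higher and 2 lower of 14 at each time, and without VILI 6 hours replicate 1 the counts were 1 and 3 at VILI 0 hours and 2 and 4 at VILI 6 hours. Map3k3, the kinase at the head of the pathway, was higher by 0.32 (log2; adjusted p = 0.105) at VILI 0 hours, and Mef2c, which activates both genes, was lower, at a log2 fold change of -0.54 (adjusted p = 0.209) and, at VILI 6 hours, -0.85 (adjusted p = 0.0737). Of 15 immediate early factors, 4 were higher and 1 lower at VILI 0 hours, and 7 were higher and 0 lower at VILI 6 hours, with medians of 0.51 and 0.63. The later count was 6 higher and 0 lower without VILI 6 hours replicate 1. Among the 7 was Fosl1, with a mean of 0.0194 FPKM in control, which passed the filter on low values only through the VILI 6 hours libraries. Junb was at 21.9 to 27.3 FPKM in control, 40.0 to 100.7 FPKM at VILI 0 hours and 46.6 to 111.4 FPKM at VILI 6 hours. Its VILI 6 hours replicate 1, unlike that of most members, was above control.

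TGF-beta genes, the pathway for which KLF10 was named, gave 0 higher and 2 lower of 11 at VILI 0 hours, the inhibitory Smad7 (-0.52, adjusted p = 0.204) and the coreceptor Eng (-0.37, adjusted p = 0.217). Later 2 were higher, Tgfbr2 and Smad3, and 0 lower. Leaving out VILI 6 hours replicate 1 gave 1 higher and 2 lower at VILI 0 hours and 4 higher and 0 lower at VILI 6 hours. With libraries centred on their medians, 0 genes of this list passed at VILI 0 hours and 4 at VILI 6 hours, and the flow pathway list had 1 gene called at VILI 0 hours in place of 3. Among 13 corepressors, coactivators and ubiquitin ligases of the family, 0 passed at VILI 0 hours (limma, unadjusted P under 0.05) and 2 were lower at VILI 6 hours, Hdac2 (-0.44, adjusted p = 0.201) and Setd7 (-0.24, adjusted p = 0.228). With VILI 6 hours replicate 1 left out, 1 was higher at VILI 0 hours, 4 were lower at VILI 6 hours, and Setd7 no longer passed.

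The table also held 7 other Kruppel-like factors. Klf1, Klf14 and Klf17 were under the filter. Of the 4 tested, 0 were higher in either comparison with control, and 1 was lower in each. Klf12 and Klf8 were the 2 lower at VILI 6 hours without replicate 1. Klf16 was lower at VILI 0 hours, at 4.42, 3.42 and 3.50 FPKM against 5.48, 4.82 and 4.62 FPKM. Klf12, a CtBP-binding repressor like Klf3, was lower at VILI 6 hours, at 4.59, 4.39 and 2.65 FPKM against 5.45, 5.22 and 5.89 FPKM in control (log2 fold change -0.54, adjusted p = 0.235). With libraries centred on their median log2 values, Klf16 and Klf12 no longer passed at those times. Among the related SP factors, 6 of 9 were tested. At VILI 0 hours 0 were higher and Sp5 and Sp6 were lower. At VILI 6 hours 0 were higher and Sp5 was lower (log2 fold change -0.85, adjusted p = 0.236), and without replicate 1 the counts were 1 higher and 2 lower. Sp1, the ubiquitous GC box factor, had 31.9, 31.9 and 32.5 FPKM in control and 29.3 to 32.0 FPKM over the 6 VILI libraries.

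Several of the list counts depended on single libraries. When each library was left out in turn, the genes called in either direction at VILI 0 hours ran from 0 (without control replicate 1 or VILI 0 hours replicate 3) to 4 for the 9 held-down endothelial genes, and from 1 (without control replicate 1) to 4 for the flow pathway. They ran from 2 to 4 for the held-up genes, from 1 to 3 for the amino acid targets and for the TGF-beta genes, from 0 to 1 for the corepressor list, and from 0 to 2 for the SP factors and for the other Kruppel-like factors. At VILI 6 hours the range was 0 (without control replicate 2 or VILI 6 hours replicate 2) to 5 for the amino acid targets, 0 (without control replicate 3 or VILI 6 hours replicate 2) to 4 for the TGF-beta genes, and 0 (without control replicate 2, control replicate 3 or VILI 6 hours replicate 3) to 4 for the corepressor list. It was 1 to 5 for the held-up genes, 3 (without control replicate 1 or VILI 6 hours replicate 3) to 7 for the held-down genes, 2 to 6 for the flow pathway, 0 to 3 for the SP factors and 0 to 2 for the other Kruppel-like factors, each highest without VILI 6 hours replicate 1. The glucocorticoid list ranged from 5 to 8 called at VILI 0 hours and from 3 (without VILI 6 hours replicate 2 or 3) to 9 at VILI 6 hours, and the immediate early factors from 4 to 7 and from 5 to 8.

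Markers of other cell types also differed between groups, but not library by library as the members did. In VILI 6 hours replicate 1, where most members lay inside the control range, neutrophil and alveolar macrophage sums were above control. All 8 neutrophil markers were higher at both times, with sums of 560.3 to 1024 FPKM at VILI 0 hours and 467.3 to 1940 FPKM at VILI 6 hours, and 0 of them were at 0 in every library. Alveolar macrophage markers summed to 197.5 to 276.4 FPKM in control, 318.0 to 390.1 FPKM at VILI 0 hours and 611.6, 205.4 and 290.6 FPKM at VILI 6 hours. B cell markers had 3 of 4 lower at VILI 6 hours (2 without replicate 1), with sums of 11.4 to 34.2 FPKM against 41.1 to 54.5 FPKM. Globin and Alas2 sums were 4915 to 5419 FPKM at VILI 0 hours against 3225 to 4182 FPKM in control. Club and ciliated sums were 29950 to 32720 FPKM against 25140 to 27620 FPKM. With all libraries 0 genes of either list passed at VILI 0 hours. Without VILI 6 hours replicate 1, 5 globin and Alas2 genes passed there as higher. Fibroblast markers had 1 higher and 2 lower at VILI 0 hours, and 0 higher and 2 lower at VILI 6 hours. The part of these cells in the Kruppel-like factor levels was not tested.

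Promoter windows of 250 bases before the RefSeq start were searched on both strands in 32851 entries, 8 of them members (Klf2, Klf3, Klf4, Klf6, Klf7, Klf9, Klf13 and Klf15). CACCC occurred in 6 of the 8 and in 52.0% of all windows, and GGGCGG in 7 of the 8 and in 32.7%. Klf4 had 4 GC boxes, of which 2 overlap, and no CACCC. Klf9 was the member without GGGCGG and the one with the AP-1 letters TGANTCA, which 6.75% of windows hold. The cAMP response element TGACGTCA (1.55% of windows) and the glucocorticoid receptor half-site TGTTCT (16.1%) occurred in 0 of the 8 windows. These counts describe the letters of the windows and were not tied to binding.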

How the data were processed

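Whole lung RNA of 9 mice (3 control, 3 VILI 0 hours, 3 VILI 6 hours) was sequenced. After trimming, the authors mapped reads with TopHat2 2.0.9 (Bowtie2 2.0.6) to GRCm38 per the labels, assembled transcripts with Scripture and Cufflinks, and deposited FPKM per transcript row estimated by Cuffdiff 2.1.1. The sample records and the methods name different library kits. No counts were used, so no count model was fitted and precision is known only from the spread of 3 mice.

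FPKM was summed per gene ID over 60108 rows (27203 IDs). Of 23713 Ensembl IDs, 23503 matched GENCODE M21. limma 3.58.1 (R 4.3.3; lmFit, eBayes with trend) was fitted to log2(FPKM + 0.1) of the 19378 genes with a mean FPKM of at least 0.1, with group as the only factor. A call is a P under 0.05 without adjustment, and Benjamini-Hochberg values over all genes stand beside it. The study set P under 0.05 for transcripts and does not say whether P was adjusted. Fold changes are on the log2(FPKM + 0.1) scale, which understates changes of low genes. The fitting code was tested on simulated data. Single genes were also tested by exact permutation.

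The members and gene lists were chosen with earlier results of these data known. Named genes were the members, the other Kruppel-like factors, list genes at P under 0.05 (up to 3 by smallest P) with the highest and lowest fold changes, marker genes, and the 3 nearest profiles of the 3 most variable members. Per1, Dusp1, Sp1 and Smad2 were named outside this rule after their values were seen. Alternatives were other pseudocounts, filters, scalings, sample sets, a replicate block, no variance trend, the highest row, and leaving out each library. Upstream sequences are from RefSeq (GRCm38.p6) and positions from GENCODE M21.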

Additional observations from a re-analysis of the deposited data

Results flagged for a closer look

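Of 99 list genes tested around the Kruppel-like factors, 16 (16.2%) differed between VILI 6 hours and VILI 0 hours at an unadjusted P under 0.05 (limma, 1 fit over 9 libraries), beside 5.06% of all genes as higher and 4.94% as lower. In that fit none of the 16 had an adjusted p under 0.05, the smallest being 0.144, and no explanation was tested. Over all 19378 genes 0 had an adjusted p under 0.05 in this comparison.

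Of 9 endothelial genes that KLF2 and KLF4 are known to hold down, 3 were higher and 1 lower at VILI 6 hours. Ccl2 had a mean of 7.06 FPKM against 0.478 FPKM (log2 difference 3.48), Sele 1.74 against 0.129 FPKM (2.54) and Icam1 187.9 against 97.5 FPKM (0.88). The later means owed much to VILI 6 hours replicate 3, at 13.55, 3.72 and 278.7 FPKM, and without it the log2 differences were 2.84, 1.76 and 0.55, all still past the threshold. Fosl1 was at 1.61 against 0.0783 FPKM (2.41; 1.3 without VILI 6 hours replicate 3, which was at 4.15 FPKM). It passed the filter on low values only through the VILI 6 hours libraries, so its difference was favoured by that filter. Of 11 genes that these factors hold up, Nos3 was the 1 that passed, higher by 0.91. Of 11 TGF-beta genes 5 were higher and 0 lower: Eng by 0.54, Smad3 by 0.49, Smad7 by 0.44, Tgfbr2 by 0.39 and Smad2 by 0.35. Fbxw7, a ubiquitin ligase of several Kruppel-like factors, was higher by 0.38 and the stretch-gated channel Piezo1 by 0.29.

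Lower at VILI 6 hours were Tsc22d3 (log2 difference -1.06), Angpt2 (-0.77), Hsd11b1 (-0.39) and Aldh6a1 (-0.27). Without VILI 6 hours replicate 1, Tsc22d3, Aldh6a1, Fbxw7 and Smad7 no longer passed, with log2 differences of -0.42, -0.20, 0.41 and 0.41 (limma adjusted p of 0.241, 0.281, 0.223 and 0.264), while Ccl2, Nos3, Sele and Angpt2 had an adjusted p of 0.0145, 0.015, 0.0223 and 0.0236.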

How the results depend on the processing

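Direction held for most member fold changes, whereas the counts at P under 0.05 depended on single libraries. Leaving out each library in turn, member counts ran from 3 to 6 (VILI 0 hours against control), 2 to 10 (VILI 6 hours against control) and 0 to 6 (VILI 6 hours against VILI 0 hours), the highest values each time being those without VILI 6 hours replicate 1. Counts over all genes ran from 1978 (without control replicate 2) to 4495, from 2540 (without control replicate 2; 2570 without control replicate 3) to 7540 and from 1406 to 4353, and counts of member rows from 4 to 10, 2 to 15 and 0 to 10. Log2 values that turned sign between the VILI groups were Klf9 (-0.77 to 0.20) and Klf13 (-0.30 to 0.29) without VILI 6 hours replicate 1, and Klf2 (-0.01 to 0.61), Klf8 (-0.38 to 0.13) and Klf12 (-0.34 to 0.09) without VILI 6 hours replicate 3. Against control they were Klf3 (-0.07 to 0.13) at VILI 0 hours without VILI 0 hours replicate 3, and, at VILI 6 hours, Klf11 (-0.33 to 0.17) without replicate 1 and Klf16 (-0.13 to 0.10) without control replicate 1 (0.05) or VILI 6 hours replicate 3. Centring libraries on their medians turned Klf11 (0.0) and Klf16 (0.1) at VILI 6 hours, left member counts at 4, 6 and 0, raised the median over all genes from -0.07 to 0.045 and from -0.089 to 0.038, and moved the share of calls that were higher from 42.1% to 61.2% at VILI 0 hours and from 40.1% to 58.1% at VILI 6 hours. With only the 6 libraries compared, all genes called numbered 5076 at VILI 0 hours and 1196 between the VILI groups. With no filter on low values, 3 members were called at VILI 6 hours in place of 6, while all genes called there went from 3952 to 4073. The cause of these shifts was not tested. Replicate numbers did not pair the mice (correlations of same-numbered deviations from -0.221 to 0.017). A replicate block gave 6, 7 and 0 members called, 2816, 3485 and 1693 genes, and 1 member row between the VILI groups. FPKM without counts leaves the depth behind each value unknown.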
